A study of Mus musculus with 4 samples.

Results

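The nuclear genes for subunits of the oxidative phosphorylation machinery were followed across 4 single-cell libraries of mouse lung endothelium. Members were chosen by symbol: genes starting with Ndufa, Ndufb, Ndufc, Ndufs, Ndufv, Sdha to Sdhd, Uqcr, Cox4i, Cox5, Cox6, Cox7, Cox8 or Atp5, leaving out names that end in ps or in af and a digit. This drops Ndufb1-ps, which the RefSeq gene table lists as an older name of the protein-coding complex I gene Ndufb1, so the complex I counts and sums lack that subunit. These prefixes matched 98 of the 32285 genes in the files, and 85 remained as members: 36 of complex I, 4 of complex II, 8 of complex III, 20 of complex IV and 17 of complex V. Of the 85, 77 reached 20 CPM (UMI counts of a gene per 1000000 UMIs of the cells summed) in the endothelial cells of at least 1 library and are called measured below. The other 8, all of complex IV, are the isoforms Cox4i2, Cox6a2, Cox6b2, Cox7a1, Cox7b2, Cox8b, Cox8c and Ndufa4l2.

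Oxidative phosphorylation takes place in the inner mitochondrial membrane, where complexes I and II feed electrons to coenzyme Q, complex III passes them to cytochrome c, and complex IV hands them to oxygen. Complexes I, III and IV pump protons, and complex V, the ATP synthase, uses the return flow of protons to make ATP. Most subunits are nuclear genes whose products are imported, while a small core is encoded by mitochondrial DNA, so the complexes are built from both genomes. Endothelial cells take much of their ATP from glycolysis, and their mitochondria are also known for roles in signalling, biosynthesis and proliferation.

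One library was made after a sham operation on wild-type mice (sham) and 1 from wild-type mice taken at day 7 following PNX (wild-type PNX). A further 2 came from the conditional knockouts that the labels call M3cKO and Foxo1cKO, also taken at day 7 (M3cKO PNX and Foxo1cKO PNX). PNX commonly stands for pneumonectomy, the removal of lung tissue. The series title concerns endothelial Rhoj in lung regeneration. The sources used here do not give the gene behind M3, the Cre driver, the age of the mice or how many animals each library pooled. Lungs were digested with type 1 collagenase, cells with CD45 were removed on beads, and cells with CD31 were kept. Each group was 1 library, so no spread between animals can be given, no test was made, and every 95% interval below covers counting error only.

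An endothelial cell was a barcode with at least 500 genes, at most 10% mitochondrially encoded UMIs (the molecular barcodes by which transcripts are counted once), at least 2 UMIs over 6 endothelial genes and none for Ptprc, Epcam, Col1a1 or Col1a2. This kept 4665 cells in sham, 3887 in wild-type PNX, 2491 in M3cKO PNX and 3811 in the Foxo1cKO PNX library, with 10493693, 13691550, 6492399 and 12346381 UMIs. The median depth was 1841, 2640, 2070 and 2474 UMIs per cell in the same order. The 6 endothelial genes were present in every library, at 767 CPM (Cldn5 in Foxo1cKO PNX) or more, though the gate itself asked for UMIs of these genes. Foxo1, the gene targeted in 1 knockout, stood at 196 CPM in sham, 208 in wild-type PNX, 185 in M3cKO PNX and 70.1 in the Foxo1cKO PNX library. Between any pair of libraries, 11 to 28 endothelial barcodes had the same sequence.

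RNA of other cells was present in the gated cells and differed between libraries. The summed level of 4 B cell markers was 353 CPM in sham, 229 in wild-type PNX, 4619 in M3cKO PNX and 207 in the Foxo1cKO PNX library. The sum of 4 platelet markers was 38.9, 439, 433 and 372 CPM, and that of 7 epithelial markers 1380, 1226, 575 and 1343 CPM, in the same order. All 4 B cell and all 4 platelet markers were above 0 in every library, and 1, 1, 1 and 2 of the epithelial markers were at 0. Cardiac muscle markers, 8 genes of a tissue rich in respiratory chain transcripts, summed to 1.14 to 2.41 CPM. The part of these other cells in the results below was not tested, apart from leaving out the clusters they lead, which gave a median of −0.33 for M3cKO PNX against wild-type PNX beside −0.32 in all cells.

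Promoters of members are shown first, because many nuclear subunit genes are known targets of the factors NRF1 and GABPA (an ETS factor). RefSeq promoter windows on GRCm38.p6 (250 bases before to 50 after the start) were matched for 69 of the 85 members. Both strands were searched for the NRF1 core site GCATGCGC, the ETS site CCGGAAG, the SP site GGGCGG and the YY1 site AAGATGG. The NRF1 core site was in 10 of the 69 windows (14.5%) and in 2.80% of the 27025 windows in the table. The ETS site was in 16 (23.2%) against 9.12%, the YY1 site in 10 (14.5%) against 6.48%, and the SP site in 29 (42.0%) against 35.9%. At least 1 of the 4 was in 47 of the 69 windows (68.1%) and in 44.3% of all windows. These windows were not limited to genes at 20 CPM or more, unlike the shares of all genes given below. Whether the members differ from other genes expressed in these cells was not tested. The stretches below run from 200 to 41 bases before the start, 160 bases each, and were picked for members that the results turn on. Ndufa6, Ndufa11, Uqcr11 and Ndufb2 were among the lowest members in M3cKO PNX relative to wild-type PNX, and Uqcrc1 was the member with the most opposed pattern. Sequences are 5′ to 3′ on the strand of the gene, in lower case, with matches to the 4 motifs in capitals.
Ndufa6 (chr15:82354332-82354491, minus strand): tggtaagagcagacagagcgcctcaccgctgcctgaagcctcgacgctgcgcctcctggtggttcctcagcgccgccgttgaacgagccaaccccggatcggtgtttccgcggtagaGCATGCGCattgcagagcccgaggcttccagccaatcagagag
Ndufa11 (chr17:56717562-56717721, plus strand): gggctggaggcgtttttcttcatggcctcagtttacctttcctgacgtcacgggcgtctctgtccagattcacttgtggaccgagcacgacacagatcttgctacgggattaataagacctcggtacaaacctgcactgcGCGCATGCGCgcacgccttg
Uqcr11 (chr10:80406862-80407021, minus strand): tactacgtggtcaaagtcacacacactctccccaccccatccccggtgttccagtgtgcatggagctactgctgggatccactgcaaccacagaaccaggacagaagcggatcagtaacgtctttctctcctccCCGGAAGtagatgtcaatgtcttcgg
Ndufb2 (chr6:39592365-39592524, plus strand): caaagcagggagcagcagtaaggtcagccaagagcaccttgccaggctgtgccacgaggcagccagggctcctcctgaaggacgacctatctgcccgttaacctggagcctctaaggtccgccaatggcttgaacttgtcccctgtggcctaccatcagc
Uqcrc1 (chr9:108936448-108936607, plus strand): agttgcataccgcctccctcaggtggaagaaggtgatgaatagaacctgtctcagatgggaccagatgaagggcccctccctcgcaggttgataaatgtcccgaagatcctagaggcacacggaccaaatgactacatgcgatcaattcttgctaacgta
In Ndufa6 the capitals mark an NRF1 core site that starts 83 bases before the start. In Ndufa11 they mark core sites on both strands that overlap each other, starting 60 and 58 bases before the start. In Uqcr11 they mark an ETS site that starts 66 bases before the start. The Ndufb2 and Uqcrc1 stretches hold none of the 4 strings. Over the longer window of 300 bases, Uqcrc1 and Uqcr11 each hold an NRF1 core site and Ndufa6 an SP site outside the stretch shown, while Ndufb2 holds none of the 4. A match describes letters in a window and is no evidence of binding.

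The members' summed level was 10013 CPM in sham endothelium (9953 to 10074), 11229 in wild-type PNX, 9198 in M3cKO PNX and 11307 in the Foxo1cKO PNX library. About 1 in 100 UMIs of an endothelial cell thus came from these genes: 1.00% in sham. M3cKO PNX was the lowest library and the wild-type and Foxo1cKO libraries after PNX were the highest. Over the 77 measured members, M3cKO PNX was the lowest of the 4 libraries for 55 (71.4%), sham for 17, Foxo1cKO PNX for 4 and wild-type PNX for 1. Among all 7453 genes at the same level, M3cKO PNX was lowest for 41.7%. Sham was lowest for 28.9% of all genes, Foxo1cKO PNX for 15.03% and wild-type PNX for 14.3%. The shares of members were 22.1%, 5.19% and 1.3% in the same order, each below that of all genes. Foxo1cKO PNX was highest for 34 members (44.2%; 24.02% of all genes), wild-type PNX for 24 (31.2%; 27.3%), sham for 16 (20.8%; 28.5%) and M3cKO PNX for 3 (3.90%; 20.2%). The share of wild-type PNX was near that of all genes.

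**Figure D1:**
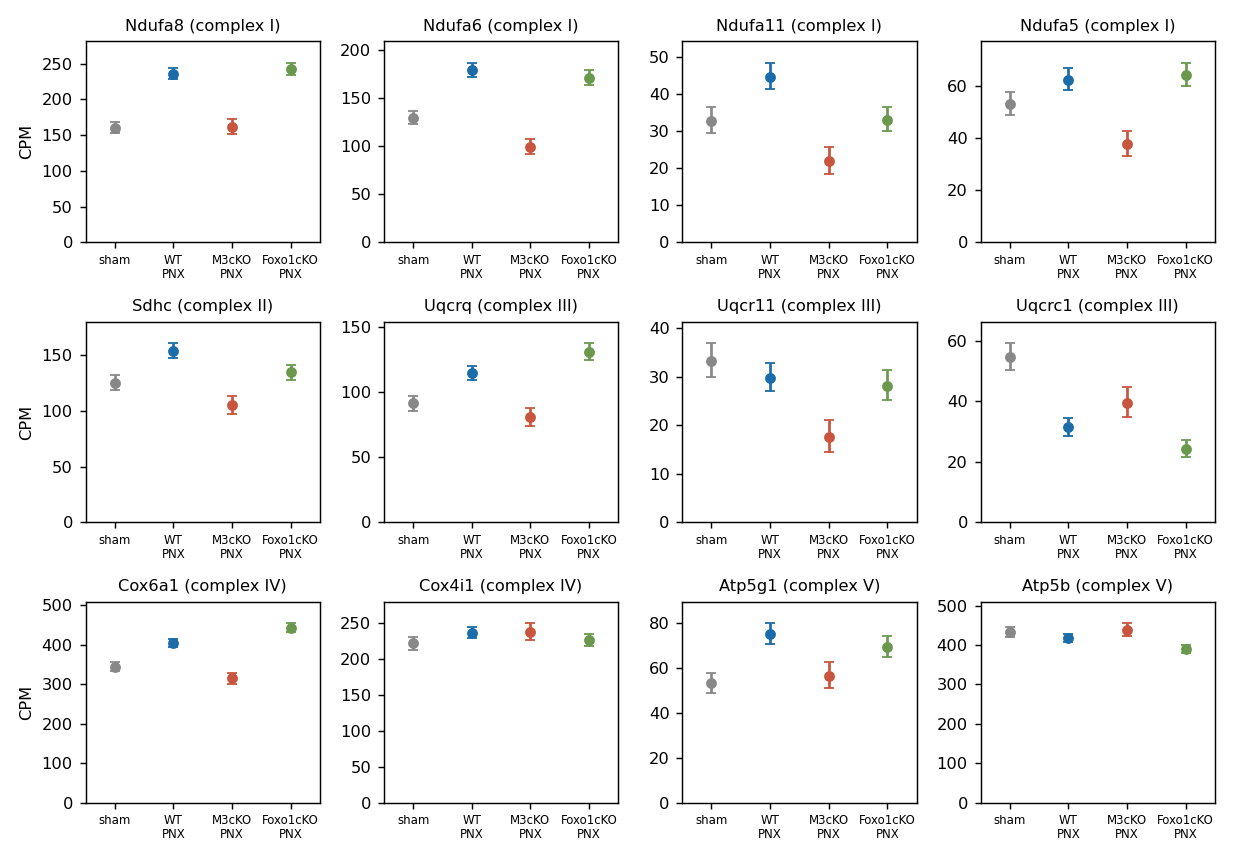
Level of 12 members in CPM (vertical axes, from 0) in the 4 libraries, with exact Poisson 95% intervals that cover counting error only. Ndufa8, Ndufa6 and Ndufa11 were highest in wild-type PNX or Foxo1cKO PNX, Uqcrc1 was highest in sham, and Cox4i1 lay between 222 and 238 CPM in all 4 libraries.

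In wild-type PNX against sham, the median log2 ratio over the 77 measured members was 0.18, beside 0.04 over all 7195 genes at 20 CPM or more. The ratio used CPM with 5 CPM added, and 59 members were above 0 and 18 below. Of the 7195 genes, 3945 were above 0 and 3250 below. A gene was counted as higher where it stood at least 25% above the other library and as lower where it stood at 0.8 of it or less, both after 5 CPM were added to each level, a rule of size and not a test, called the smaller fold rule below. By this rule 12 members were higher and 4 lower, where all genes gave 20% higher and 14.5% lower. The share of members counted as higher was thus below that of all genes, and the shift of the median lay in many small differences. At 1.5-fold no member was higher and 2 were lower (Uqcrc1 and Ndufb7), beside 7.49% and 5.27% of all genes. By complex the medians were 0.15 for I, 0.05 for II (−0.02 with median-of-ratios scaling, which sets libraries level by their median gene and not by their total), 0.14 for III, 0.21 for IV and 0.25 for V. With that scaling the others were 0.08 for I, 0.07 for III, 0.14 for IV and 0.18 for V.

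In M3cKO PNX against wild-type PNX, the median over 76 measured members was −0.32, beside −0.11 over all 7159 genes. There were 69 members below 0 and 7 above, where 4586 of the 7159 genes were below 0 and 2573 above. By the smaller fold rule 37 members were lower and none was higher. Among all genes 24.8% were lower and 12.2% higher. At 1.5-fold 6 members were lower (Ndufa11, Ndufa6, Ndufa5, Uqcr11, Ndufb2 and Ndufa2) and none higher, beside 8.65% and 5.42% of all genes, so the share of members past this larger fold was near that of all genes. With median-of-ratios scaling the median of all genes moved from −0.11 to 0.04 and that of the members from −0.32 to −0.16, so the members lay below all genes under both, and 16 in place of 37 were lower by the smaller fold rule. The share of all genes past the rule was not counted with that scaling. Complex I had the lowest median, −0.39, with 21 of 35 measured members lower by the smaller fold rule. The medians were −0.26 for complex II, −0.27 for III, −0.29 for IV and −0.28 for V, with 1 of 4, 3 of 8, 5 of 12 and 7 of 17 members lower by this rule. With median-of-ratios scaling they were −0.25 for I, −0.11 for II, −0.12 for III, −0.14 for IV and −0.13 for V.

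In Foxo1cKO PNX against wild-type PNX, the median over 76 measured members was 0.01, beside −0.01 over all 7086 genes. No member was higher by the smaller fold rule and 1 was lower (Ndufa11), where 2.88% of all genes were higher and 3.47% lower. The interval of the summed log2 ratio ran from 0.00 to 0.02. wild-type PNX enters all 3 comparisons, so their ratios are not independent. The comparisons with sham likewise share the sham library. Against it the median was −0.17 for M3cKO PNX (all genes −0.06), with 20 of 77 members lower and none higher by the smaller fold rule beside 21.0% and 14.3% of all genes. For Foxo1cKO PNX against sham it was 0.20 (all genes 0.04), with 18 members higher and 4 lower beside 18.4% and 14.5%.

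**Figure D2:**
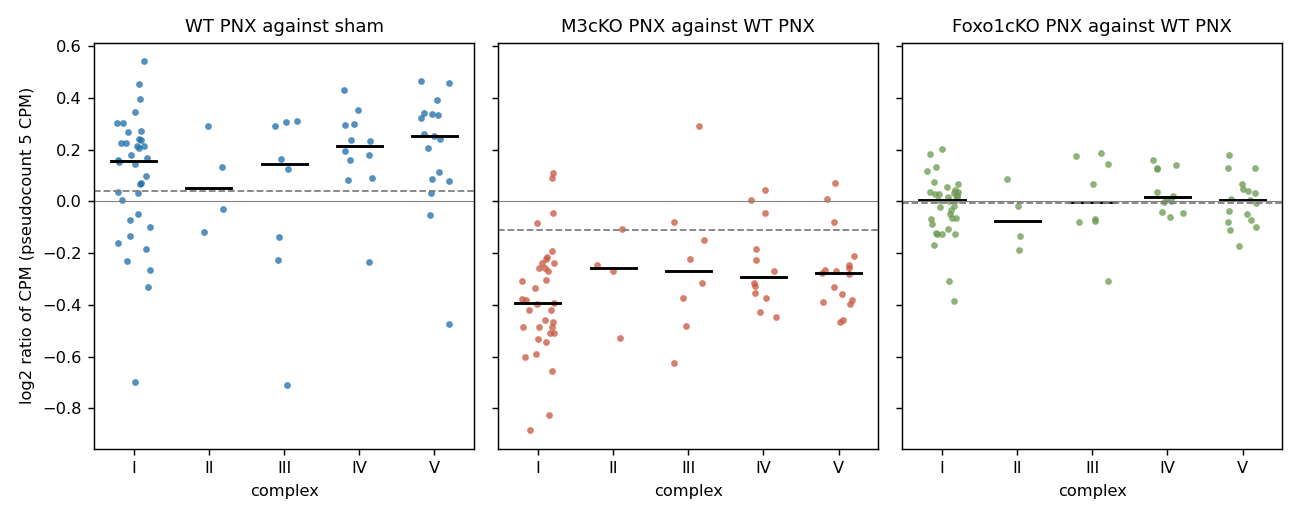
Log2 ratio of CPM (vertical axis, 5 CPM added) of each measured member, by complex, in 3 comparisons. Black bars are the medians of a complex and the dashed line is the median of all genes. Most points of the M3cKO panel lie below the dashed line at −0.11, and those of the Foxo1cKO panel lie around 0.

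Complex I, the NADH dehydrogenase, summed to 3030 CPM in sham, 3356 in wild-type PNX, 2619 in M3cKO PNX and 3336 in the Foxo1cKO PNX library. Ndufv1, which holds the NADH binding site, stood at 40.9 CPM in sham, 41.05 in wild-type PNX, 27.9 in M3cKO PNX and 32.2 in the Foxo1cKO PNX library. Ndufv2 stood at 120.0, 143, 100.6 and 127 CPM, and Ndufs1 at 52.8, 62.5, 43.9 and 63.9 CPM in the same order. All 3 belong to the catalytic core of the complex, and all 3 were lowest in M3cKO PNX.

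The accessory subunits of complex I surround the core and had a median of −0.39 in M3cKO PNX against wild-type PNX. Of 28 measured, 26 were below 0, beside 4586 of 7159 among all genes. With median-of-ratios scaling the median of these subunits was −0.25. Ndufa6, a LYR-motif subunit at the matrix side, stood at 129.6 CPM in sham, 179 in wild-type PNX, 99.0 in M3cKO PNX and 171 in the Foxo1cKO PNX library. M3cKO PNX lay below sham while the other libraries after PNX lay above it. The ratio of M3cKO PNX to wild-type PNX was 0.552 (0.505 to 0.602), a 1.81-fold lower level. Ndufa6 was higher in wild-type PNX than in sham in all 11 endothelial clusters that could be compared, and lower in M3cKO PNX than in wild-type PNX in all 11.

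Ndufa11, a membrane-arm subunit, stood at 32.7, 44.6, 21.9 and 33.0 CPM in sham, wild-type PNX, M3cKO PNX and Foxo1cKO PNX. wild-type PNX was the highest and the ratio of M3cKO PNX to it was 0.490 (0.405 to 0.589). Ndufa11 was also the only measured member lower by the smaller fold rule in Foxo1cKO PNX, with a plain CPM ratio of 0.739 (0.650 to 0.839). Without the added 5 CPM, Uqcrc1 at 0.776 and Ndufv1 at 0.785 also stood under 0.8. Across clusters it was lower in M3cKO PNX in 11 of 11 and lower in Foxo1cKO PNX in 10 of 13. Ndufa8, a subunit with CHCH domains on the intermembrane side, had the largest log2 ratio of wild-type PNX to sham among the members, 0.54. Its levels were 161, 236, 162 and 242 CPM, so M3cKO PNX was at the sham level and the other 2 libraries after PNX were alike.

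Ndufa5 stood at 53.1, 62.3, 37.7 and 64.1 CPM, Ndufa2 at 57.3, 60.2, 38.4 and 69.0 CPM, and Ndufb2 at 30.3, 38.6, 23.7 and 37.6 CPM. All 3 are small accessory subunits, and all 3 were lowest in M3cKO PNX and lower there than in sham. By cluster, M3cKO PNX was below wild-type PNX in 10 of 11 for Ndufa5, in 11 of 11 for Ndufa2 and in 7 of 11 for Ndufb2. Ndufb7, another small subunit with a CHCH domain, ran otherwise: it stood at 23.2 CPM in sham, 12.3 in wild-type PNX, 9.70 in M3cKO PNX and 17.3 in the Foxo1cKO PNX library. All 3 libraries after PNX were below sham, and the ratio of wild-type PNX to sham was 0.533 (0.435 to 0.651). Ndufc2 and Ndufa3 were the only complex I members above 0 in M3cKO PNX against wild-type PNX, with log2 ratios of 0.11 and 0.09.

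Complex II, the succinate dehydrogenase of the citric acid cycle, has 4 members and none encoded in mitochondrial DNA. They summed to 376, 403, 317 and 378 CPM in sham, wild-type PNX, M3cKO PNX and Foxo1cKO PNX. Sdhc, a membrane anchor that binds coenzyme Q, varied most: 125, 154, 106 and 135 CPM, highest in wild-type PNX. It was lower in M3cKO PNX than in wild-type PNX in 11 of 11 clusters, and the pooled ratio was 0.684 (0.627 to 0.746). Sdha, the flavoprotein, stood at 109.7, 100.6, 82.6 and 99.2 CPM, and Sdhb, the iron-sulphur subunit, at 81.3, 89.7, 74.9 and 81.2 CPM. These catalytic subunits were both lowest in M3cKO PNX, with log2 ratios to wild-type PNX of −0.27 and −0.25 that did not reach the smaller fold rule.

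Complex III, the cytochrome bc1 complex, summed to 777, 839, 690 and 869 CPM. Its 5 small accessory members (Uqcrb, Uqcrq, Uqcrh, Uqcr10 and Uqcr11) had a median of −0.37 in M3cKO PNX against wild-type PNX. All 5 were below 0 (4586 of 7159 among all genes), while Uqcrc1, Uqcrc2 and Uqcrfs1 had a median of −0.08. With median-of-ratios scaling these medians became −0.22 and 0.07. Uqcrq stood at 91.2, 114, 80.6 and 131 CPM, lowest in M3cKO PNX and highest in Foxo1cKO PNX. Uqcr11 stood at 33.3, 29.8, 17.6 and 28.2 CPM, so that wild-type PNX was not above sham, and M3cKO PNX was 0.589 of wild-type PNX (0.474 to 0.727). It was lower in M3cKO PNX in 11 of 11 clusters.

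Uqcrc1, a core protein related to processing peptidases, was by CPM the only member of its complex above 0 in M3cKO PNX against wild-type PNX. Like it, Uqcrc2 was highest in sham and lowest in Foxo1cKO PNX, at 112, 95.4, 90.1 and 90.0 CPM. The level of Uqcrc1 was 54.6 CPM in sham, 31.4 in wild-type PNX, 39.6 in M3cKO PNX and 24.4 in the Foxo1cKO PNX library. Sham was highest, and the ratio of wild-type PNX to sham was 0.575 (0.506 to 0.653). It was the member with the largest log2 ratio of M3cKO PNX to wild-type PNX, 0.29, and the next to lowest of Foxo1cKO PNX to wild-type PNX, −0.31. wild-type PNX was below sham in 10 of 11 clusters. M3cKO PNX was above wild-type PNX in 5 of 11, so the direction of that difference was not shared between clusters. In the general capillary cluster Uqcrc1 stood at 55.1, 27.1, 50.1 and 24.3 CPM in sham, wild-type PNX, M3cKO PNX and Foxo1cKO PNX, and in the larger aerocyte cluster at 56.7, 29.9, 27.2 and 18.1 CPM.

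Complex IV, the cytochrome c oxidase, summed to 2609, 3005, 2528 and 3116 CPM. In wild-type PNX against sham 11 of its 12 measured members were above 0, and 10 of 12 were below 0 in M3cKO PNX against wild-type PNX. Among all genes these counts were 3945 of 7195 and 4586 of 7159. Cox6a1, the widely expressed form of a subunit that also has a heart and muscle form, stood at 344, 405, 315 and 443 CPM. Cox7b stood at 126, 172, 126 and 171 CPM, so M3cKO PNX was at the sham level and the other libraries after PNX were higher. Cox7a2 stood at 138, 171, 131 and 166 CPM, lowest in M3cKO PNX and highest in wild-type PNX. Cox7b and Cox7a2 were each lower in M3cKO PNX than in wild-type PNX in 8 of 11 clusters. Ndufa4, first described in complex I and now counted with complex IV, stood at 266, 301, 219.8 and 306 CPM, and was lower in M3cKO PNX than in wild-type PNX in 11 of 11 clusters. Cox4i1, which holds a regulatory site of the complex, differed least: 222, 237, 238 and 227 CPM, with a log2 ratio of 0.01 in M3cKO PNX against wild-type PNX.

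The tissue-restricted forms of complex IV subunits were near the floor in these cells. Cox4i2, an isoform that responds to oxygen and is known from lung, gave 22, 42, 9 and 34 UMIs in the whole endothelium, or 2.10, 3.07, 1.39 and 2.75 CPM. Of these, 4, 14, 0 and 13 UMIs lay in the aerocyte cluster led by globin genes and 1, 1, 0 and 2 in the other aerocyte cluster. The rest, with all 9 of M3cKO PNX, lay outside the aerocyte clusters. Cox4i2 was also on the list of pericyte markers, and the gated cells held a pericyte cluster of 44 cells. The part of such cells in its UMIs was not tested. Cox6b2, the testis form, stood at 1.24, 3.36, 1.08 and 2.35 CPM, and Cox6a2, the muscle form, at 0.476, 2.05, 1.69 and 0.891 CPM. Cox7a1 and Cox8b, also muscle forms, and Ndufa4l2, which is induced by hypoxia, stayed under 1 CPM in each library. Cox7b2 and Cox8c had 0 UMIs in all 4 libraries.

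Complex V, the ATP synthase, summed to 3221, 3625, 3044 and 3608 CPM. Its parts differed. The 3 genes of the c-ring, the proton-driven rotor, had a median of 0.34 in wild-type PNX against sham and −0.38 in M3cKO PNX against wild-type PNX. The catalytic F1 head (Atp5a1, Atp5b, Atp5c1, Atp5d and Atp5e) had medians of 0.03 and −0.08, which became −0.05 and 0.08 with median-of-ratios scaling. The 4 stalk members had medians of 0.18 and −0.31, and the 5 small membrane members 0.33 and −0.36. With that scaling the medians were 0.26 and −0.24 for the c-ring, 0.11 and −0.15 for the stalk, and 0.26 and −0.21 for the membrane members. Atp5b, the catalytic beta subunit, stood at 433, 418, 439 and 390 CPM, with M3cKO PNX the highest.

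The c-ring genes encode the same mature protein with different import sequences. Atp5g1 stood at 53.0, 75.01, 56.4 and 69.2 CPM in sham, wild-type PNX, M3cKO PNX and Foxo1cKO PNX. Atp5g2 stood at 245, 311, 257 and 318 CPM, and Atp5g3 at 167, 201, 145 and 202 CPM. All 3 were higher in wild-type PNX than in sham, with ratios of 1.42 (1.28 to 1.57), 1.27 (1.21 to 1.33) and 1.20 (1.13 to 1.28). Among the small membrane members, Atp5mpl stood at 90.4, 126, 105 and 139 CPM and Atp5k, which takes part in dimers of the synthase, at 111, 129, 92.1 and 141 CPM. Both were highest in Foxo1cKO PNX. Atp5d, the delta subunit of the F1 head, was lower in all 3 PNX libraries than in the wild-type sham library: 50.6, 34.99, 35.3 and 33.0 CPM, and in 10 of 11 clusters of wild-type PNX against sham.

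The endothelial cells were grouped into clusters without using the members, and clusters were named from markers. Lymphatic cells had the highest summed level: 11382 CPM in sham, 14500 in wild-type PNX and 14439 in Foxo1cKO PNX, with 38 cells in M3cKO PNX, too few to be used. In wild-type PNX, venous cells stood at 12536 CPM, proliferating cells at 12675, systemic-type cells at 12253, arterial cells at 10924, general capillary cells at 10347, the larger aerocyte cluster at 10086 and the globin-led one at 11210. Aerocytes are the large capillary cells specialised for gas exchange and general capillary cells are the progenitor-like partner type. The venous class of sham also lay above its capillary classes, at 11243 CPM against 10317 in general capillary cells and 9632 and 9900 in the aerocyte clusters.

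In M3cKO PNX against wild-type PNX, the median over members was below 0 and below the median of all genes in all 11 clusters with at least 50 cells in both libraries. It ran from −0.36 in proliferating cells (all genes −0.04) to −0.19 in general capillary cells (all genes −0.13). The difference between members and all genes was thus small in the general capillary cluster, 614 and 507 cells, and larger elsewhere. Venous cells gave −0.34 (all genes −0.11), with summed levels of 9779 CPM in M3cKO PNX and 12536 in wild-type PNX. Arterial cells gave −0.33 (all genes −0.06), with 52 and 180 cells, the larger aerocyte cluster −0.22 (all genes −0.08) and the globin-led aerocyte cluster −0.27 (all genes −0.11). A cluster led by Atf3 and Socs3, genes of an early stress response, gave −0.35 (all genes −0.13).

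In wild-type PNX against sham, the medians spread more: 10 of 11 clusters were above 0 and 8 of 11 above the median of all genes. The lymphatic cluster had the highest, 0.35 (all genes 0.03). General capillary cells gave 0.00, below all genes at 0.06, the larger aerocyte cluster 0.05 (all genes 0.03) and the aerocyte cluster led by globin genes 0.17 (all genes 0.04). Venous and arterial cells each gave 0.16. Proliferating cells numbered 20 in sham and 252 in wild-type PNX, so that class could not be compared. With clusters weighted to a common composition the median was 0.10 in place of 0.18. That weighting kept only clusters with at least 50 cells in each of the 4 libraries, so lymphatic, systemic-type and proliferating cells were left out. In Foxo1cKO PNX against wild-type PNX, 13 clusters ran from −0.04 in proliferating cells to 0.09 in the cluster led by Esm1 and Cxcl12.

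**Figure D3:**
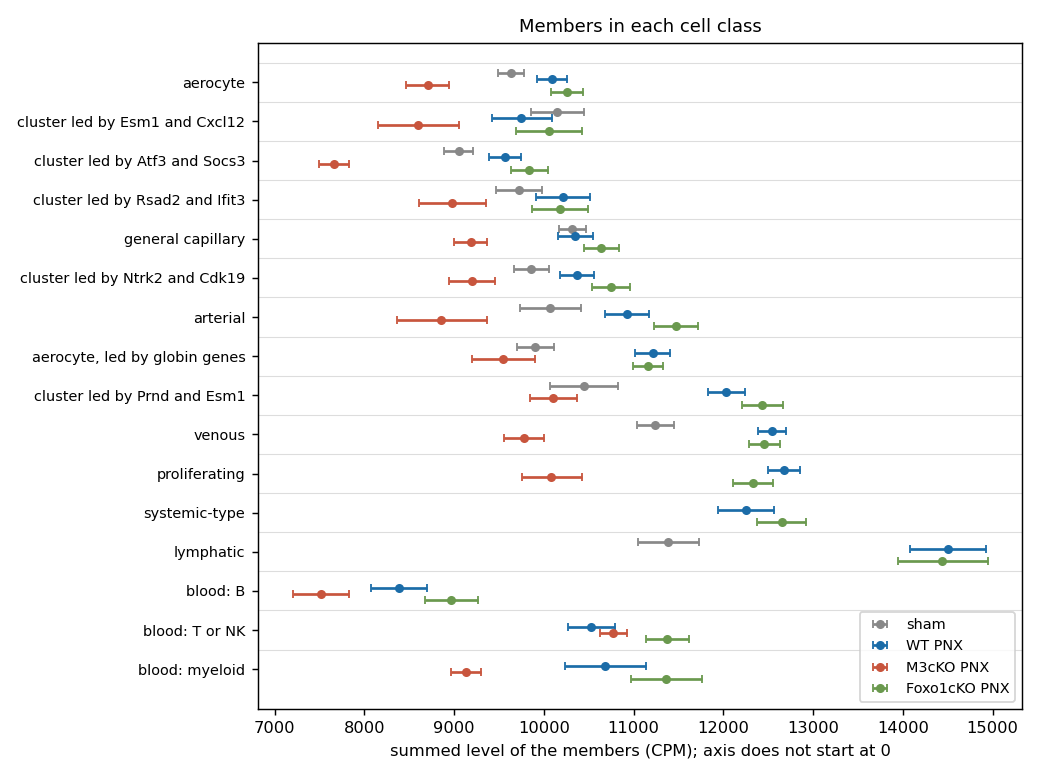
Summed level of the members in CPM (horizontal axis, not from 0) in each endothelial cluster and in blood cells, by library, with exact Poisson 95% intervals. Points rest on at least 50 cells. M3cKO PNX lies to the left of wild-type PNX in every endothelial cluster shown for both. B and myeloid cells show the same order, and T or NK cells do not.

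Blood cells that had passed the CD45 depletion gave a comparison outside the endothelium. In T or NK cells the summed level was 10526 CPM in wild-type PNX, 10772 in M3cKO PNX and 11375 in the Foxo1cKO PNX library, from 268, 599 and 338 cells. The median over members in M3cKO PNX against wild-type PNX was −0.02, beside −0.05 over all genes in these cells. In myeloid cells it was −0.24 (all genes −0.09), with summed levels of 9132 and 10676 CPM from 346 and 75 cells. In B cells it was −0.12, but all genes gave −0.33 there, with 94 and 176 cells. The summed level in B cells was 7512 CPM in M3cKO PNX and 8385 CPM in wild-type PNX. The members' median was thus below that of all genes in myeloid cells, as in endothelium, and above it in T or NK and in B cells. Foxo1cKO PNX against wild-type PNX gave 0.10, 0.08 and 0.12 in T or NK, myeloid and B cells. Sham had 23 to 32 cells of each kind, too few to be used.

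The members' level moved with depth and with the mitochondrial share of a cell. From cells under 1500 UMIs to cells of 6000 or more, the summed level went from 9653 to 10388 CPM in sham, from 9389 to 12294 in wild-type PNX, from 8396 to 10067 in M3cKO PNX and from 9863 to 12266 in Foxo1cKO PNX. In the shallowest cells wild-type PNX was below sham, and above it in the deepest, with medians of −0.01 and 0.25. M3cKO PNX was below wild-type PNX in all 4 bins of depth, with medians of −0.19, −0.30, −0.29 and −0.34 from shallow to deep. Over all endothelial cells, the median of all genes was 0.04 in wild-type PNX against sham and −0.11 in M3cKO PNX against wild-type PNX. All-gene medians within the bins are not given here for these comparisons, so part of each bin median may be shared with all genes. Against sham, M3cKO PNX gave −0.22 in the shallowest cells (all genes −0.07) and −0.03 in the deepest (all genes −0.08). By mitochondrial share, the level went from 9910 CPM at 2.5% to 5% to 11983 CPM at 7.5% to 10% in wild-type PNX and from 8370 to 9841 CPM in M3cKO PNX. The part of depth and of mitochondrial share in the pooled differences was not tested.

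**Figure D4:**
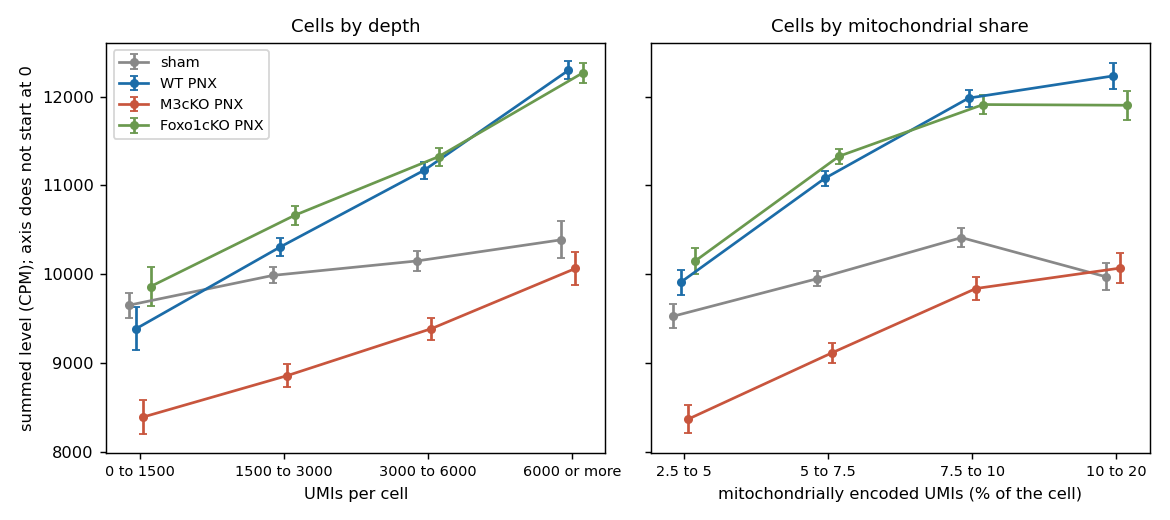
Summed level of the members in CPM (vertical axis, not from 0) in endothelial cells by UMIs per cell (left) and by mitochondrial share (right), with exact Poisson 95% intervals. The line of M3cKO PNX runs below that of wild-type PNX throughout, while sham lies above wild-type PNX in the shallowest cells.

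Libraries differed in their make-up by sex. Male-type cells, in which Y-linked but no Xist transcripts were found, numbered 1196, 798, 761 and 574, and female-type cells, with the opposite pattern, 0, 938, 0 and 932. In male-type cells alone the summed level was 9965 CPM in sham, 11573 in wild-type PNX, 9551 in M3cKO PNX and 11685 in the Foxo1cKO PNX library. The medians were 0.18, −0.32 and −0.01 in the 3 comparisons, close to those over all cells.

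The GC content of transcripts moved with the ratios of wild-type PNX to sham. Across the 77 measured members the Spearman correlation of the log2 ratio with the GC of the longest coding transcript was −0.33, and −0.32 across 7121 genes; these are descriptions across genes of the same pair of libraries. Members of 55% GC or more had a median of −0.05 (18 members; all genes −0.13), those of 45 to 50% GC 0.27 (22 members; all genes 0.08). Uqcrc1, Ndufb7 and Atp5d, all lower in wild-type PNX than in sham, have 57.5%, 59.7% and 59.3% GC. In M3cKO PNX against wild-type PNX the correlation was 0.08 across members and 0.28 across all genes, and members of 55% GC or more had a median of −0.28, where all genes of that GC had 0.03. The part of GC content in either comparison was not tested.

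**Figure D5:**
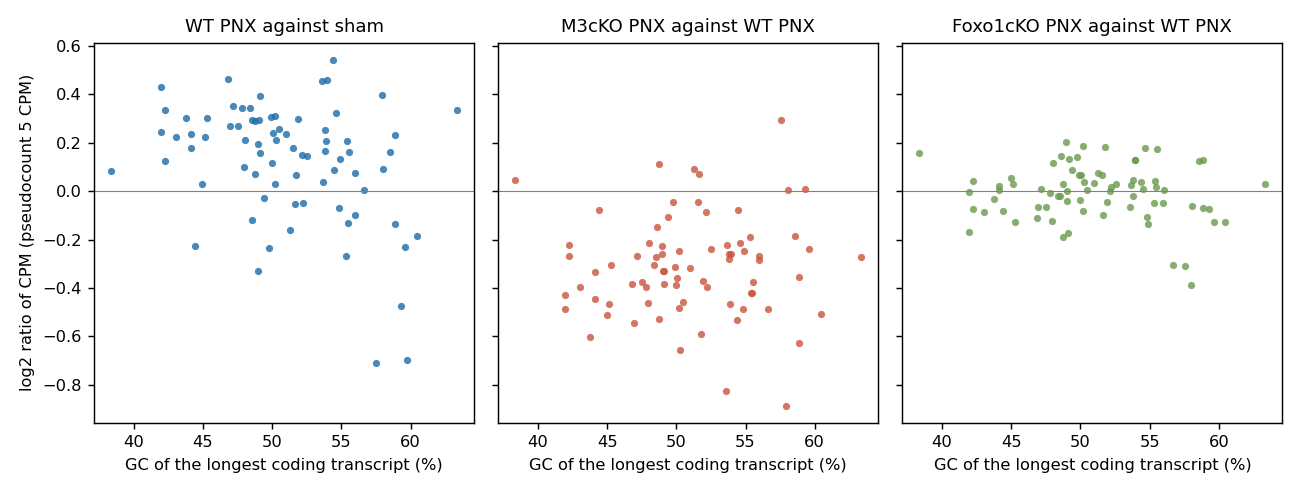
Log2 ratio of CPM (vertical axis, 5 CPM added) of each measured member against the GC of its longest coding transcript (horizontal axis, %), in 3 comparisons. Members with high GC lie lower in wild-type PNX against sham, and no such slope is seen in the other panels.

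Genes around the complexes were read from lists. The 13 subunits encoded in mitochondrial DNA summed to 65916 CPM in sham, 68237 in wild-type PNX, 66135 in M3cKO PNX and 67188 in the Foxo1cKO PNX library. The gate limits this sum, since it keeps cells with at most 10% of such UMIs, so its spread between libraries is not compared with that of the nuclear members. Their median in M3cKO PNX against wild-type PNX was −0.12 (0.04 with median-of-ratios scaling), with 3 of 12 measured lower and none higher by the smaller fold rule. Among all genes the median was −0.11 (0.04 with that scaling), with 24.8% lower and 12.2% higher. The median and the share counted as lower were thus near those of all genes. The levels of mt-Nd5, a proton-pumping subunit of complex I, were 1222, 1770, 1234 and 1555 CPM, and those of mt-Cytb, the core of complex III, 8986, 8304, 8966 and 8315 CPM.

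Assembly factors, which build the complexes and stay out of them, had a median of −0.29 in M3cKO PNX against wild-type PNX (10 of 24 measured lower, none higher). Cox14, a factor for complex IV, stood at 48.0, 47.3, 28.0 and 53.2 CPM. Subunits of the mitochondrial ribosome, which translates the mitochondrial messages, had a median of −0.28 (26 of 64 lower, 1 higher). Cytosolic ribosomal genes had a median of −0.02 (0.13 with median-of-ratios scaling; 7 of 83 lower, 5 higher). The citric acid cycle and pyruvate dehydrogenase list had −0.13 (0.01 with that scaling; 4 of 16 lower, none higher), mitochondrial antioxidants −0.27 (1 of 6 lower) and electron carriers and exchangers −0.09 (0.07 with it; 3 of 13 lower, 2 higher). In the last list Ucp2, an inner-membrane carrier that immune cells also express, stood at 899.9, 732, 1785 and 736 CPM, and the B cell markers given above were also highest in M3cKO PNX; their part in it was not tested. Regulators of the genes gave −0.20 (2 of 11 lower, 1 higher), with 6 below 0 and 5 above. Gabpa, which encodes the ETS factor named above, stood at 26.1, 37.6, 25.4 and 33.8 CPM. Nrf1 differed little, at 32.9, 30.2, 31.0 and 31.2 CPM, and Pprc1 was highest in M3cKO PNX, at 26.0, 30.3, 44.7 and 29.9 CPM. With median-of-ratios scaling the medians were −0.16 for assembly factors, −0.14 for the mitochondrial ribosome, −0.12 for antioxidants and −0.05 for regulators. Among all genes the median was −0.11 (0.04 with it), with 24.8% lower and 12.2% higher. The shares counted as lower in the citric acid cycle, antioxidant, carrier and regulator lists were near or below that of all genes.

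In wild-type PNX against sham the same lists had medians of 0.13 for mitochondrially encoded subunits (5 of 12 higher, none lower), 0.02 for assembly factors (−0.05 with median-of-ratios scaling; 3 of 25 higher, 1 lower), 0.18 for the mitochondrial ribosome (17 of 64 higher, 2 lower) and 0.26 for the cytosolic ribosome (28 of 83 higher, 8 lower). The citric acid cycle list had 0.07 (0.00 with it; 2 of 16 higher), regulators 0.19 (2 of 11 higher, 1 lower), carriers 0.15 (3 of 14 higher, 1 lower) and antioxidants 0.14 (1 of 7 higher, 1 lower). Cycs, which encodes cytochrome c, the carrier between complexes III and IV, stood at 75.6, 127, 119 and 114 CPM, with sham the lowest. In Foxo1cKO PNX against wild-type PNX the list medians lay between −0.09 for carriers and 0.10 for assembly factors.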

How the data were processed

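Single-cell RNA was measured in 4 libraries, 1 per group. The files deposited by the authors give unnormalized UMI counts for every gene in every barcode. Mapping used the mm10 build and Cell Ranger 2.1.1 per the labels' protocols; R 3.4.4 appears in the submitters' processing notes, and 3.0.0 is the software version per the file headers. Sequencing was on a NovaSeq instrument.

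UMIs of gated endothelial cells were summed per library and scaled to CPM; levels have 95% Poisson intervals and ratios 95% intervals from the conditional binomial, all exact. Log2 ratios used a pseudocount of 5 CPM, and a member or gene entered a comparison at 20 CPM or more in either library. Cells were clustered with scanpy 1.11.5 (2000 variable genes without members and mitochondrially encoded genes, scaled within each library, 30 components, 20 neighbours, Leiden resolution 1) into 20 clusters. Names needed 3 or more class markers within the 50 leading genes of a cluster and a lead of 2 over the next class. Scaling within libraries and the lead of 2 were chosen after a first clustering had split general capillary cells by library. A class needed 50 cells in a library. Doublets were left in, and removing the highest Scrublet scores at 0.8% per 1000 barcodes was an alternative. Blood cells had Ptprc, no endothelial gene and markers of 1 lineage. How reads shared with processed copies of a gene were counted is not given in the sources used here, and members with such copies are uncertain. Transcript GC came from GENCODE.

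The members and lists were chosen with earlier results of these data known. Named members were, in each complex, the 3 measured members with the largest ratio of highest to lowest library, all measured members past 1.5-fold in a comparison, the tissue-restricted isoforms with their partners, and the c-ring genes. Ndufa8, Ndufv1, Ndufv2, Ndufs1, Ndufc2, Ndufa3, Uqcrc2 and Atp5b were named after their values were seen. Each list could name the 3 measured genes with the largest ratio. The genes mt-Cytb, Gabpa, Nrf1 and Pprc1 were added after their values were seen. The steps were tested on simulated data. Other gates, scalings (TMM factors from edgeR 4.0.16), pseudocounts, minimum levels, cell subsets and doublet removal were tried, 17 in all, and 2 more were added after seeing the data. One grouping of complex I subunits is not reported here.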

Additional observations from a re-analysis of the deposited data

How the results depend on the processing

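No paired analysis was possible because each group is 1 library. The median log2 ratio over members in wild-type PNX against sham stayed above 0 under all 19 alternatives. It was 0.077 at no more than 5% mitochondrial UMIs and 0.20 at 20%, 0.12 with cells of at least 2000 UMIs thinned to that depth, 0.11 with TMM and 0.10 with median-of-ratios scaling, 0.20 with totals free of mitochondrially encoded and ribosomal UMIs, 0.13 as a mean of per-cell CPM, 0.23 at 100 CPM or more, 0.0028 in the general capillary cluster alone, 0.15 without proliferating cells and 0.10 with clusters weighted to the pooled composition. M3cKO PNX against wild-type PNX stayed below 0 throughout: −0.28 at 5% mitochondrial UMIs, −0.30 at 1000 genes or more, −0.29 thinned, −0.19 with TMM, −0.16 with median-of-ratios scaling, −0.30 as a mean of per-cell CPM, −0.19 in general capillary cells, −0.29 without proliferating cells, −0.29 weighted and −0.33 after Scrublet removal. Median-of-ratios scaling also moved the median of all genes, from −0.11 to 0.04, and members counted as lower by the smaller fold rule (0.8 or less after 5 CPM were added) went from 37 to 16, or 19 with TMM and 22 in general capillary cells, with 1 higher under each of these scalings and 2 in those cells; the gap between members and all genes ran from −0.26 to −0.06 over the alternatives. In wild-type PNX against sham 4 to 25 members were counted as higher, with the 25 in male-type cells. Shares of all genes past this rule are not given here for the alternatives, so these counts are not set against them. The gap between members and all genes in wild-type PNX against sham changed sign. It was −0.059 in general capillary cells (all genes 0.061), 0.044 at no more than 5% mitochondrial UMIs, 0.055 with weighted clusters and 0.21 at 100 CPM or more. Foxo1cKO PNX against wild-type PNX was 0.044 in general capillary cells and −0.0064 in male-type cells. Among 31 named members, 4 differences past that rule changed sign, each in the general capillary cluster: Cox7b at −0.0019 and Ndufa11 at −0.025 in wild-type PNX against sham, and Cox7a2 at 0.058 and Ndufb2 at 0.14 in M3cKO PNX against wild-type PNX. The cause was not tested. Thinning left out 2654, 1147, 1197 and 1275 cells in sham, wild-type PNX, M3cKO PNX and Foxo1cKO PNX. The weighting of clusters used only those with at least 50 cells in each of the 4 libraries. Members under 20 CPM, and clusters of about 50 cells, are limited by depth.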
